A study of Mus musculus with 3 samples.

Results

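Immediate early genes and heat shock genes were followed in ureteric duct cells of the mouse embryo. The set was chosen by gene name and held 40 genes: 27 of the immediate early response and 13 heat shock and chaperone genes. A gene was measured where a probe set of the array named it alone, and the brightest such probe set was used. This gave values for 37 of the 40 among 19938 genes in all: all 27 early genes and 10 of the 13 heat shock genes. Hsf1, Hsp90ab1 and Hspa1b had no probe set of their own here and were not analysed as single genes. The material was Hoxb7-GFP-positive cells, carrying the transgene Tg(Hoxb7-EGFP)33Cos on a CD-1 background, taken at 10.5 days post coitum (Theiler stage 18) and of unrecorded sex. Each of the 3 arrays held amplified RNA from 1 duct that had been microdissected, treated with trypsin and sorted by fluorescence. There was no undissociated, untreated or unsorted sample, so a level present in the embryo and one reached during isolation cannot be told apart. The Hoxb7 promoter is known to be active in the whole nephric duct lineage, so the sort does not separate bud tip from trunk.

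Immediate early genes are transcribed within minutes of a stimulus, without new protein synthesis, when kinases such as ERK, JNK and p38 activate factors already bound at their promoters. Many encode transcription factors (Fos, Jun, Egr, Klf and Nr4a families), and others encode proteins that end the response, by degrading mRNA (Zfp36), slowing the cell cycle (Btg, Gadd45) or blocking cytokine signals (Socs3). Heat shock genes encode chaperones that fold proteins. Some are made in all cells at all times (Hspa8, Hsp90ab1), while others are strongly induced when the factor Hsf1 binds heat shock elements (Hspa1a, Hspa1b, Hspb1, Dnajb1). Both groups are known to rise in many tissues during enzymatic dissociation.

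The promoters of a few members hold short motifs of kinds that factors of such responses are known to bind. Stretches just upstream of the start were taken from RefSeq promoter windows of the GRCm38.p6 assembly, which held 23 of the 27 early genes and 9 of the 13 heat shock genes. Egr1, Egr3, Fosl1, Ier2, Hsf1, Hsp90aa1, Hsp90ab1 and Hspa8 had no window here. The first 3 belong to early genes that read highest on array 1, and capitals mark a CArG box (the serum response element bound by Srf) in Egr2 and Zfp36 and the cyclic AMP response element TGACGTCA in Btg2. The Egr2 stretch lies at chr10:67537416-67537565 on the plus strand, that of Zfp36 at chr7:28379229-28379378 on the minus strand and that of Btg2 at chr1:134079156-134079355 on the minus strand.
Egr2: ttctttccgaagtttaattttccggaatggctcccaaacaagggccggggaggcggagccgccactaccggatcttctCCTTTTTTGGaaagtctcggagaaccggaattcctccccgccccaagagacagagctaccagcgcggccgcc
Zfp36: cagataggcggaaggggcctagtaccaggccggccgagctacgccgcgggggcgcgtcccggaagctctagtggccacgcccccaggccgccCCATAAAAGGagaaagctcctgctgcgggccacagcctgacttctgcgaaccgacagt
Btg2: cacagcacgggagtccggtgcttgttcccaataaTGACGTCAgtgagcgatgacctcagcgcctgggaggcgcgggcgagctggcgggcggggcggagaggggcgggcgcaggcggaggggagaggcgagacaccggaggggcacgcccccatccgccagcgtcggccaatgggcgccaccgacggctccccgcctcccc

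The next 4 belong to heat shock genes, and capitals mark heat shock element cores, searched as GAANNTTC and TTCNNGAA. Hspa1a lies at chr17:34972157-34972306 and Hspa1b at chr17:34959239-34959388, both on the minus strand, Hspb1 at chr5:135887769-135887918 on the plus strand and Hspe1 at chr1:55087998-55088147 on the plus strand.
Hspa1a: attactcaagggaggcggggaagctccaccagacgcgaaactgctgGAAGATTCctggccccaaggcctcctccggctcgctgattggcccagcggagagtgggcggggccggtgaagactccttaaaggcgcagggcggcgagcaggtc
Hspa1b: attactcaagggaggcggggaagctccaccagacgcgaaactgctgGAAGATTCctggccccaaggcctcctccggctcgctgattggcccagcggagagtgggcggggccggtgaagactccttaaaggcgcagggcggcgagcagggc
Hspb1: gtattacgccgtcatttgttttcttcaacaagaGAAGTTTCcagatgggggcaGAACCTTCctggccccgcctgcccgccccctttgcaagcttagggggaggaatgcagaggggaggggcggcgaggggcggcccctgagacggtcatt
Hspe1: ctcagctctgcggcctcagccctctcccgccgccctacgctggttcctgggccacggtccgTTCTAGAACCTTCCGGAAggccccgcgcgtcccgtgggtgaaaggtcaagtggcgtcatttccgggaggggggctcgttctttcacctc

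The Hspa1a and Hspa1b stretches were identical at 149 of 150 positions, and each held its core 104 bases upstream of the start. Hspb1 held 2 separate cores. In Hspe1 the 3 matches overlap in 1 run. Hspe1 and Hspd1, whose products form the folding chamber of mitochondria, are transcribed in opposite directions. Their starts lie 216 bases apart on chromosome 1, so the same run lies upstream of both these starts. RefSeq lists a further Hspd1 start 95 bases beyond the start of Hspe1, and the run is not upstream of that one.

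Within the 250 bases upstream of a listed start, 7 of the 9 heat shock genes held at least 1 of the 2 cores (Dnaja1, Hspa1a, Hspa1b, Hspb1, Hspd1, Hspe1 and Hsph1), as did 14.5% of all 27025 genes with a window. Dnajb1 and Hspa5, the other heat shock genes with a window, held neither core there. Among the early genes 3 of 23 held one, Egr2, Fosl2 and Jun. A CArG box was found in Egr2 and Zfp36, 2 of 23 early genes, and in 1.62% of all genes. It began 72 bases upstream of the Egr2 start shown, and a second one, CCATATATGG, lay 72 bases upstream of a later Egr2 start. TGACGTCA was found in Btg2 alone among the early genes and in 1.77% of all genes. The AP-1 site TGANTCA was found in Zfp36l1 and Hspa5 and in 7.82% of all genes. A gene with several listed starts, as Egr2 has, counts once where any of its windows holds the motif. All of these motifs read the same on both strands. A match describes these letters only, and binding was not measured.

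Signals are log2 values as deposited, and each was read against a cutoff for its array. The cutoff was the 95th percentile of 1212 receptor probe sets (olfactory and vomeronasal, genes of sensory neurons), which came to 5.69, 5.73 and 5.70 on arrays 1, 2 and 3. A gene is called above background where limma's one-sided test gave a Benjamini-Hochberg adjusted p under 0.05 over all 21789 probe sets that name 1 gene. A stricter cutoff at the 99th percentile averaged 6.38. All 15 duct markers listed passed, led by Calb1 and Krt8, against 56.2% of all genes. Of 15 endothelial markers 14 passed as well, led by Emcn and Cdh5. The lists were chosen with earlier results of these data known, so these counts are no independent check of the labels. Of all genes, 50.8%, and 9 of the 27 early and 2 of the 10 heat shock genes, read exactly the same on all 3 arrays, and for these ("one value" below) no spread can be given and the p is too small. The labels do not say whether the 3 ducts came from separate embryos or litters, so the p-values measure only the spread between these arrays. Probe sets differ in affinity, so values rank no gene above another.

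Of the 27 immediate early genes, 22 lay above background, against 56.2% of all genes, and their median signal was 6.73 against 6.04 over all genes. At the 99th percentile cutoff the count was 14, against 36.1% of all genes. At a cutoff 1 log2 unit higher it was 11, against 28.4%. For the heat shock genes the count was 8 of 10 at each of these 3 cutoffs. Their median signal was 11.78 by the brightest probe sets and 11.15 with a gene's probe sets averaged.

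**Figure D1:**
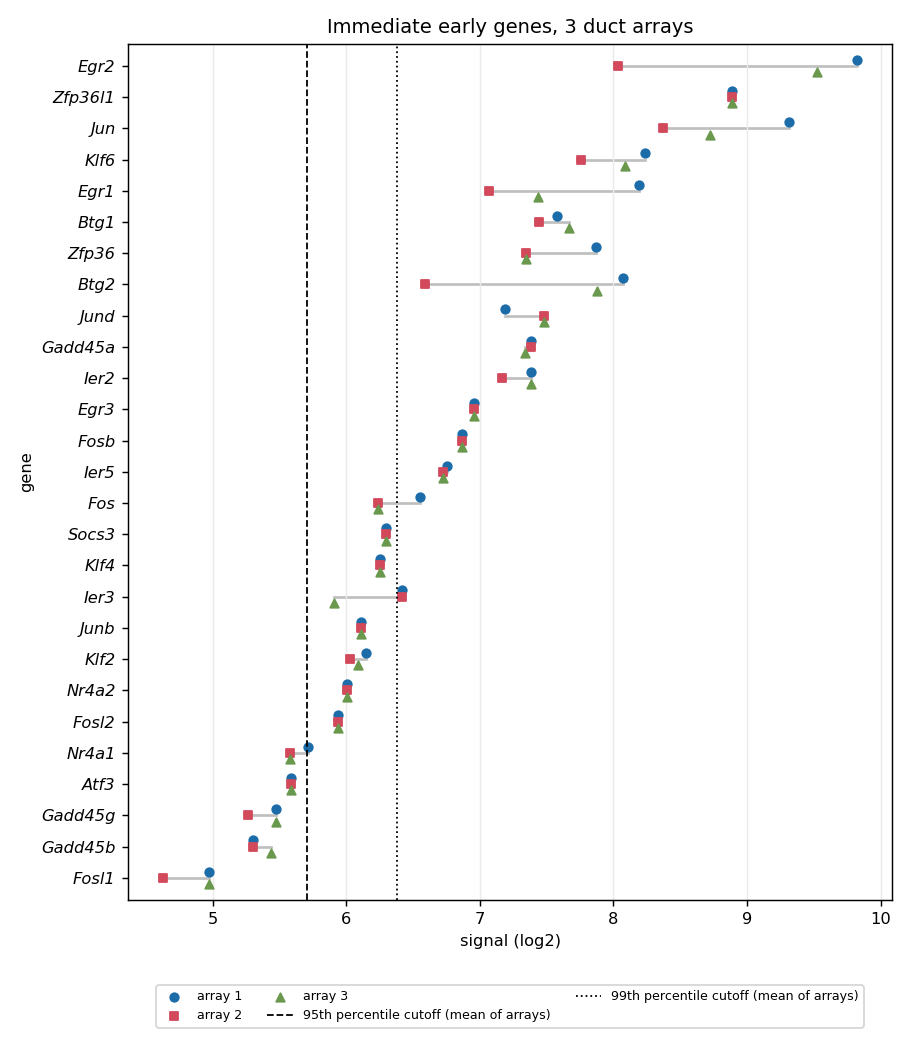
Signal of the 27 immediate early genes (log2, x axis) on each of the 3 duct arrays, with genes ordered by mean and a grey line joining the lowest and highest array. Dashed and dotted lines are the 95th and 99th percentile cutoffs, averaged over arrays. Egr2, Btg2, Egr1 and Jun spread most, with array 2 (square) lowest in each, and 9 genes hold one value.

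The AP-1 factors are dimers of Fos and Jun family proteins. Jun read 9.32 on array 1, 8.37 on array 2 and 8.72 on array 3, so every array lay far above its cutoff (8.80 ± 0.48, SD, n = 3). The distance to background was 3.09 log2 units (limma, adjusted p = 0.000823). Jund, a family member present in most resting cells, read 7.19, 7.48 and 7.48, with array 1 lowest. Junb, which is usually induced, read 6.11 (one value), 0.41 above the mean cutoff and below the 99th percentile. Fos itself was close to background: it read 6.55, 6.24 and 6.24 (6.34 ± 0.18), and only array 1 lay above the 99th percentile cutoff. Fosb read 6.87 (one value) and passed at the 99th percentile. Fosl2 at 5.94 (one value) passed by 0.23 log2 units, the smallest margin of any called early gene. It lost its call without array 3 (limma, adjusted p = 0.0915), although its distance there was still 0.23. In that fit limma used a common spread for all genes, so the loss does not reflect the Fosl2 value on array 3. Fosl1, a late-acting family member, read 4.98, 4.63 and 4.97 and did not pass. Atf3, a stress-induced partner of Jun, read 5.58 (one value), 0.12 below the mean cutoff. Thus 3 of the 4 Fos family genes and all 3 Jun family genes were above background, against 56.2% of all genes. At the 99th percentile Fosb, Jun and Jund were, against 36.1% of all genes.

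The Egr genes encode zinc finger factors induced through Srf and its ERK-activated partners. Egr2 had the widest spread of all 37 genes: it read 9.82 on array 1, 8.03 on array 2 and 9.52 on array 3 (9.13 ± 0.96, SD, n = 3). Even its lowest array lay 2.30 log2 units above that array's cutoff, and the call held (limma, adjusted p = 0.00409). Egr1 read 8.19, 7.07 and 7.44 (7.57 ± 0.57), again with array 1 highest and array 2 lowest. Egr3 read 6.95 (one value). All 3 passed at the 99th percentile too, against 36.1% of all genes. Egr1 lost its call at a cutoff 1 log2 unit higher (limma, adjusted p = 0.0796).

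The Krüppel-like factors and orphan nuclear receptors gave a mixed picture. Klf6, a broadly made factor, read 8.24, 7.76 and 8.08 (8.03 ± 0.25) and passed clearly. Klf4 at 6.25 (one value) and Klf2, a factor known from endothelium under flow, at 6.15, 6.03 and 6.09 passed at the 95th percentile and lay below the 99th on every array. Nr4a2 at 6.01 (one value) did likewise. Nr4a1 read 5.71, 5.58 and 5.58, just above the cutoff on array 1 and under it on the others, and did not pass.

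Among the Ier genes, small early response proteins, Ier2 read 7.39, 7.16 and 7.39 and Ier5 read 6.75, 6.72 and 6.72, and both passed at the 99th percentile. Ier3 read 6.41 on arrays 1 and 2 and 5.91 on array 3 (6.25 ± 0.29). Its call (limma, adjusted p = 0.0226) was lost without array 2 (adjusted p = 0.108).

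Several genes that limit the response lay well above background. Zfp36l1, which binds AU-rich elements and marks mRNA for decay, read 8.89 (one value), and its relative Zfp36 read 7.87 on array 1 and 7.35 on both others. The antiproliferative gene Btg1 read 7.58, 7.44 and 7.67, a narrow range. Btg2, its p53-responsive relative, read 8.07, 6.59 and 7.88 (7.51 ± 0.81), so that array 2 stood apart from the other arrays by at least 1.29 log2 units. Btg2 passed (limma, adjusted p = 0.0149), but not at a cutoff 1 log2 unit higher (adjusted p = 0.194). Of the Gadd45 growth arrest genes, Gadd45a passed at 7.39, 7.39 and 7.34, while Gadd45b at 5.30, 5.30 and 5.44 and Gadd45g at 5.47, 5.26 and 5.47 lay below the cutoff on all arrays. Socs3, the feedback inhibitor of JAK and STAT signalling, read 6.30 (one value) from one probe set and 5.26 (one value) from its other.

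Array 2 read lowest for many of the early genes. The 27 genes averaged 6.94 on array 1, 6.66 on array 2 and 6.82 on array 3. Array 2 alone was lowest for 11 of the 27, against 10.4% of all genes, and alone highest for 0, against 12.0%. Array 1 alone was highest for 11, against 10.9% of all genes. Genes with one value, 50.8% of all genes but 9 of these 27, cannot enter counts of lowest, highest or wide range. Among the rest, array 2 alone was lowest for 11 of 18 early genes, against 2069 of 9809 genes in all. It was alone highest for 0 of 18, against 2386 of 9809. Array 1 alone was highest for 11 of 18, against 2166 of 9809. The difference of array 2, its value minus the mean of the other arrays, was large in a few genes: it was -1.64 log2 units for Egr2, -1.39 for Btg2, -0.74 for Egr1, -0.65 for Jun and -0.40 for Klf6, while the median over the 27 was -0.07. A difference at least as far below 0 as that of Egr2 was seen for 13 of 19938 genes, Egr2 included, and one as far as that of Btg2 for 32. Egr2 and Btg2 were the 2 early genes that array 2 read over 0.5 log2 units below each other array, as it did for 1.07% of all genes. A range over arrays above 0.5 log2 units was seen in 6 of the 27 (Egr2, Btg2, Egr1, Jun, Zfp36 and Ier3), against 10.2% of all genes, and above 1 in 3, against 3.15%. With 1 sample behind each array, these differences have no test. Array 2 had the lowest mean of the 27 also after array medians were set equal (6.63 against 6.95 and 6.83) and after quantile normalization (6.64 against 6.94 and 6.83).

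Markers of endothelium were also lowest on array 2. Of 15 endothelial markers, 14 were lowest on array 2, and their mean was 7.66, 7.08 and 7.68 on arrays 1, 2 and 3. Their summed signal on the linear scale was 4412, 2561 and 4634. Sox17 was the 1 marker not above background. The mean of the endothelial markers was as high on array 3 as on array 1, though not each marker was. On array 3 Jun and Egr1 were nearer to array 2 than to array 1, and Egr2 and Btg2 nearer to array 1. Red cell markers differed too: 3 of 9 passed, against 56.2% of all genes. These were Gata1 at 6.06 ± 0.05, Epor at 6.02 ± 0.04 and Slc4a1 at 5.89 (one value), all close to the cutoff. At the 99th percentile 0 of the 9 passed. Array 1 alone was highest for 3 others, which did not pass: Hbb-y read 10.02 on array 1 against 5.31 and 5.45, Hba-x 8.89 against 5.97 and 5.84, and Hbb-bh1 6.41 against 4.40 and 4.33. In that order their SDs were 2.68, 1.72 and 1.18. Hba-x lay above the cutoff on all 3 arrays, and Hbb-y and Hbb-bh1 on array 1 alone, so a missing call here does not mean a missing signal. Macrophage markers passed in 1 of 11 cases (Cx3cr1 at 6.54, one value), against 56.2% of all genes. They averaged 5.17, 5.26 and 5.24, with Cd68 at 5.71 on array 1 and 6.60 on both others. Mesenchymal and stromal markers passed in 3 of 14, also against 56.2%. Their highest means were those of Col1a1 at 6.75 (one value), which passed, and Pdgfra at 5.88 ± 0.18, which did not. The 14 averaged 5.04, 5.05 and 5.04. Duct markers averaged 8.48, 8.35 and 8.39. The part of these cells in the early gene pattern was not tested. In such bulk samples fewer cells of a type and less RNA per cell cannot be told apart.

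**Figure D2:**
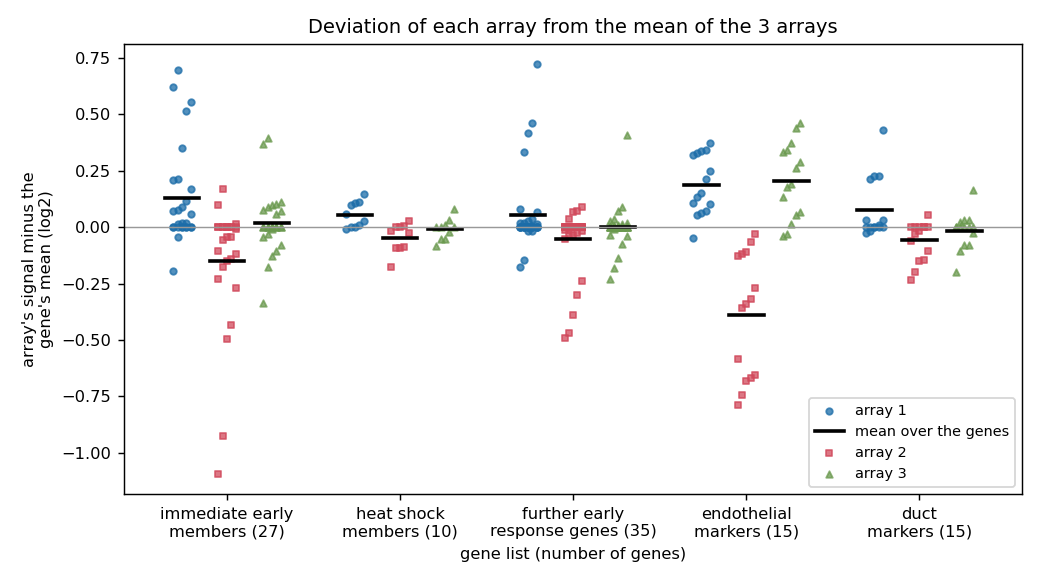
Each array's signal minus the gene's mean over the 3 arrays (log2, y axis) for 5 gene lists (x axis, number of genes in brackets). Points are genes, coloured and shaped by array, and black bars are means over the genes. Array 2 lies lowest on average in the early genes (-0.15) and further down in the endothelial markers (-0.39), while heat shock and duct genes stay within 0.1 log2 units on average.

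The exact values of early genes recur in other genes about as often as those of all genes do. For 19 of the 27 the value on at least 1 array was also that of another gene, as it was for 69.2% of all genes. Ier2 and Gadd45a both read 7.38586 on array 1, and Junb shared its value with 60 other genes. None of the 10 heat shock genes shared a value. Fosl2, Klf4, Socs3 and Atf3, all near the cutoff, shared theirs with 59, 53, 30 and 28 genes. Whether a shared value is specific to its gene was not tested.

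The main cytosolic chaperones lay far above background. Hspa8, the Hsc70 protein that folds new chains and uncoats vesicles, read 12.81, 12.57 and 12.62 (12.67 ± 0.13, SD, n = 3), 6.96 log2 units above background (limma, adjusted p = 6.27e-06). Its other probe sets read 12.29 ± 0.17 and 12.07 ± 0.13, in the same order of arrays. Hsp90aa1, the stress-responsive Hsp90 that matures kinases and steroid receptors, read 12.51 (one value), with 12.27 ± 0.01 and 11.48 (one value) from its other probe sets. Dnaja1, an Hsp40 that delivers clients to Hsp70, read 12.46 (one value) from its brightest probe set but 9.50, 9.75 and 9.18 from the other, where array 2 was highest. Hsph1, a nucleotide exchange factor of Hsp70, read 9.31, 9.12 and 9.18. The probe sets of Dnaja1 thus differed by 2.98 log2 units. This was more than the 0.57 log2 units by which its second set, the widest of those naming 1 of the 10 genes, differed between arrays. Dnaja1, Hsp90aa1, Hspa8, Hspb1, Hspd1 and Hspe1 each had more than 1 probe set, and where these lie on the genome was not checked. The brightest set is therefore not known to be the one at the gene's own locus.

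The mitochondrial pair read alike on all arrays. Hspe1, the lid of the folding chamber, read 12.56, 12.58 and 12.57, and 12.50 (one value) from its other probe set. Hspd1, the chamber itself, read 12.26, 12.26 and 12.18, with 10.93, 10.93 and 10.87 from the other. Hspa5, the Hsp70 of the endoplasmic reticulum, read 11.45, 11.31 and 11.25 (11.33 ± 0.10).

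Of the strongly inducible chaperones, Hspb1 and Hspa1a lay at background. Hspb1, the small heat shock protein Hsp27, read 5.78, 5.63 and 5.75, at the cutoff (limma, adjusted p = 0.682), and its other probe set read 5.83, 5.36 and 5.57. Hspa1a, the stress-induced Hsp70, read 5.99, 5.72 and 5.98 (5.90 ± 0.15), 0.19 log2 units above background, and did not pass (limma, adjusted p = 0.082). Without array 2, where it lay under the cutoff, Hspa1a passed (adjusted p = 0.00333). The probe set that names both Hspa1a and Hspa1b was outside the test and read 6.72 on all arrays, 1.01 above the mean cutoff. Dnajb1, the inducible Hsp40, read 7.01, 6.98 and 7.01 and passed at every cutoff. The gap between Hspa1a and Hspa8 is one between different probe sets and does not give a ratio of transcripts.

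**Figure D3:**
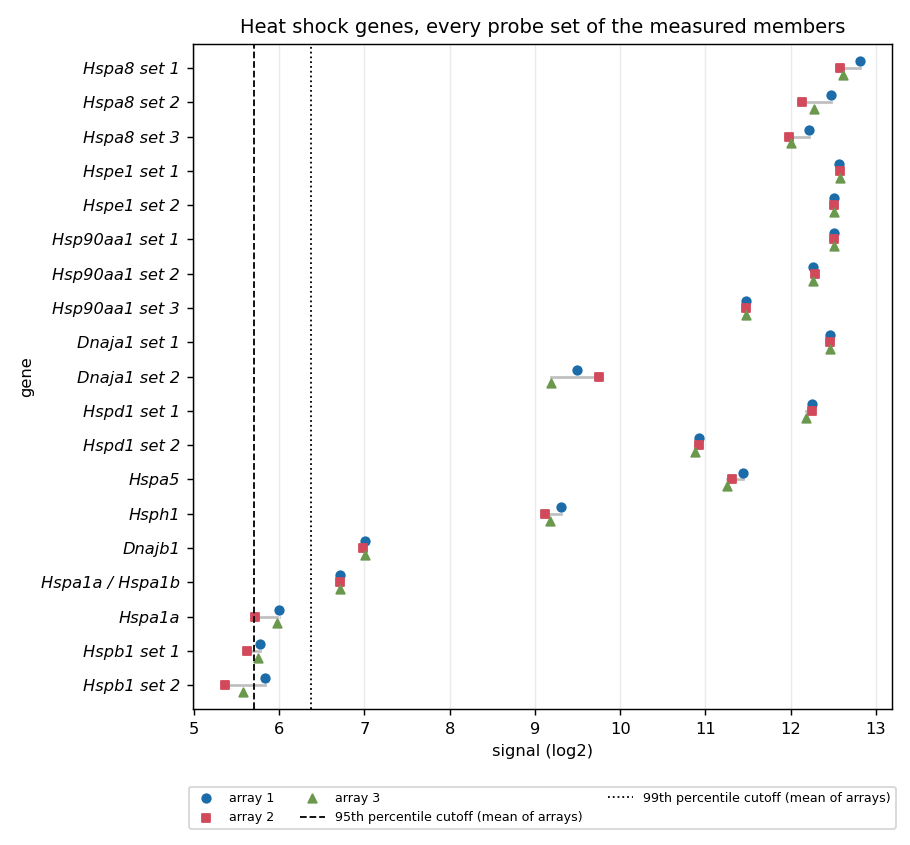
Signal (log2, x axis) of every probe set of the 10 measured heat shock genes and of the probe set shared by Hspa1a and Hspa1b, on each of the 3 arrays. Sets of one gene are numbered from the brightest, and dashed and dotted lines are the 95th and 99th percentile cutoffs. Hspb1 and Hspa1a lie at the 95th percentile cutoff and the other genes above both cutoffs.

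The mean of the 10 heat shock genes was 10.21, 10.11 and 10.15 on arrays 1, 2 and 3. By their brightest probe sets 0 of 10 had a range above 0.5 log2 units, against 10.2% of all genes, so the count is near that share. The second probe set of Dnaja1, at 0.57, did have such a range. Array 2 alone was lowest for 5 of 10, against 10.4% of all genes, and array 1 alone highest for 5, against 10.9%, with Hspa8, Hsph1, Hspa1a and Hspb1 among both. Among genes without one value each count was 5 of 8, against 2069 and 2166 of 9809 genes in all. The order of the 3 means was the same after array medians were set equal and after quantile normalization. The median difference of array 2 from the others was -0.03 log2 units. The median SD of genes without one value was 0.09 for the heat shock genes, 0.18 for the early genes and 0.11 for all genes.

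Other genes of both responses were read from further lists. Of 35 more early response genes, 26 passed, against 56.2% of all genes, and their median signal was 6.29 against 6.04. At the 99th percentile 14 passed, against 36.1% of all genes, and at the cutoff 1 log2 unit higher 8, against 28.4%, so at these cutoffs the list was near or below the share of all genes. The highest means were those of Mcl1, a survival factor, at 8.77 (one value) and Myc at 8.21 ± 0.03, and the lowest were Il6 at 2.83 and Nr4a3 at 4.09, which did not pass. The widest ranges were those of Ccn1, a matricellular protein, which read 8.83, 7.62 and 7.89, and Rhob, a small GTPase, which read 7.65, 6.72 and 7.20. Array 2 alone was lowest for 9 of the 35, Ccn1 and Rhob included, against 10.4% of all genes. Among genes without one value it was lowest for 9 of 16, against 2069 of 9809 genes in all. The mean difference of array 2 from the others over the list was -0.08 log2 units against -0.22 for the 27 members. Of 16 measured upstream kinases and factors 14 passed, and 14 at the 99th percentile: Creb1, which binds the cyclic AMP response element, read 9.60 ± 0.11 and the kinase gene Rps6ka3 9.38 (one value). Elk3, a partner of Srf, read 8.55, 8.43 and 8.84. Srf itself read 6.52 (one value) and passed. Of its co-activators Mrtfb read 7.73, 7.45 and 7.68 and passed, while Mrtfa at 5.62 (one value) did not. The kinase gene Rps6ka5, at 6.21, 5.61 and 5.61, did not pass either.

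Of 38 further cytosolic chaperones and cochaperones 31 passed, and 26 at the 99th percentile. For this list and those that follow here, the shares over all genes were 56.2% and 36.1%. The Hsp90 cochaperone Ptges3 read 12.21 ± 0.08 and the Hsp70 exchange factor Bag1 11.40 ± 0.14, while neither Dnajb2 at 5.35 nor the small heat shock protein Cryab at 5.39 passed (both one value). The widest ranges belonged to the ubiquitin ligase Stub1, at 9.50, 8.69 and 9.97, and to Dnajb6, at 7.88, 7.71 and 7.06. All 9 mitochondrial chaperones and proteases passed, from Grpel2 at 6.51 ± 0.19 and Clpb at 7.06 ± 0.03 to Dnaja3 at 8.01 (one value) and Hspa9 at 10.32 ± 0.06. Lonp1, a protease, read 7.25, 7.25 and 6.97. In the endoplasmic reticulum list 19 of 21 passed: Hsp90b1 read 12.61 ± 0.15 and the lectin chaperone Canx 11.75 ± 0.11, and the lowest were Eif2ak3 at 5.49 and Ern1 at 5.72 (both one value), which did not pass. Both encode stress sensors of this compartment, and the gene of the third sensor, Atf6, read 7.32, 7.32 and 7.23 and passed. The widest ranges there were those of Hyou1, at 7.78, 7.47 and 8.11, and Pdia4, at 10.23, 9.74 and 9.64.

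**Figure D4:**
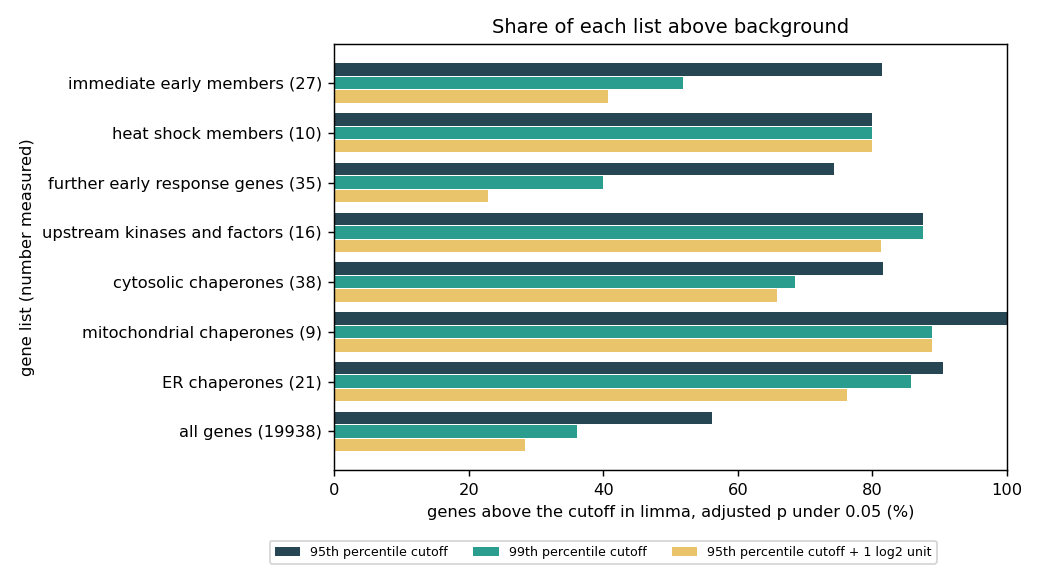
Share of each gene list above background in limma at an adjusted p under 0.05 (x axis, percent), at 3 cutoffs, with the number of measured genes in brackets. Of the early genes, 22, 14 and 11 of 27 pass from the lowest to the highest cutoff, whereas 8 of 10 heat shock genes pass at each, beside 56.2%, 36.1% and 28.4% of all genes.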

How the data were processed

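RNA of 3 sorted duct samples was amplified in 1 round and hybridised to 1 Affymetrix array each, per the labels' protocols. The authors deposited log2 signals, read as log2 from their range of 1.90 to 14.2. Per the submitters' processing notes the software was Affymetrix Expression Console; algorithm, version and filters: not given in the sources used here. Array medians were 5.85, 5.90 and 5.86. Precision is limited by there being only 3 arrays.

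The platform annotation gave 1 symbol to 21789 of 35557 probe sets, several to 1621 and none to 12147. Of the first, 21698 matched the GRCm38.p6 gene table, and 0 symbols changed. Each array's cutoff was subtracted, and an intercept-only model with moderated spread was run in limma 3.58.1 under R 4.3.3 (one-sided). The fit was also run on simulated data, with normal noise at the spread of probe sets without one value. That run therefore does not cover genes with one value. The members and lists were chosen with earlier results of these data known. Every measured member is named. Each related list is represented by the 2 highest means, the 2 lowest and the 2 widest ranges, and each marker list by the 2 highest means. Srf, Mrtfb, Atf6, Sox17, Gata1, Epor, Slc4a1 and Hbb-bh1 were named outside this rule, with their values known. Alternatives changed the background, scaling, probe set choice, filter, tied spread and arrays.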

Additional observations from a re-analysis of the deposited data

How the results depend on the processing

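No paired analysis was possible because there is a single group. Signal over background set the counts: at the 99th percentile 14 early genes and 7190 of all genes passed, and at a cutoff 1 log2 unit higher 11 and 5653. Of the further early response genes 14 and 8 passed. Leaving out an array gave 21 to 22 early, 8 to 9 heat shock and 10363 to 11007 genes in all. Without array 3 limma estimated one common spread, so that fit ignores each gene's own. Counts over the members stayed within 1.5 times under the other alternatives. Averaging a gene's probe sets gave a heat shock median of 11.15 and array means of 9.92, 9.82 and 9.83.

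Distances to the cutoff changed sign as follows. At the 99th percentile they were -0.037 for Fos, -0.44 for Fosl2, -0.26 for Junb, -0.13 for Ier3, -0.37 for Nr4a2, -0.29 for Klf2, -0.13 for Klf4, -0.082 for Socs3, -0.48 for Hspa1a and -0.66 for Hspb1. With the cutoff raised they were, in that order, -0.37, -0.77, -0.59, -0.46, -0.70, -0.62, -0.46, -0.41, -0.81 and -0.99. At the 90th percentile Atf3 lay 0.19, Nr4a1 0.22 and Gadd45g 0.0057 above the cutoff. For Hspb1 the distance was -0.069 with olfactory receptors alone, -0.048 with probe sets averaged, and between -0.025 and 0.068 with an array left out, beside 0.012 as reported. The cutoff's height alone separates the first 3 settings from the reported one. With the filter on low values Fosl1 was not in the fit.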

Other observations

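Some probe sets that name a member together with other genes were outside the test. A pair of them names Hspa8 with the small nucleolar RNAs Snord14c and Snord14d, which are made from introns of Hspa8. The first read 8.41 on array 1, 9.34 on array 2 and 10.42 on array 3, and the second 8.47, 9.40 and 10.48. Both had an SD of 1.01 and a range of 2.01, so the pair moved in step and is not read as independent measurements. The pair was thus lowest on array 1 and highest on array 3. In contrast, the 3 probe sets that name Hspa8 alone were highest on array 1 and differed between arrays by at most 0.34 log2 units. A probe set naming Dnaja1 and Mir207 read 9.93 on all 3 arrays.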
